A study of Homo sapiens with 3 samples.

Results

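Mitotic kinesins are motor proteins that burn ATP to walk along microtubules, or to take microtubule ends apart, while a cell divides. They separate the spindle poles, bring chromosomes to the spindle equator and build the midzone on which cytokinesis runs, and their genes are known to be switched on late in the cell cycle. The 10 genes described here, CENPE, KIF11, KIF14, KIF15, KIF18A, KIF20A, KIF20B, KIF23, KIF2C and KIF4A, were taken as a named list, and all 14 probes that the platform annotation assigns to them were read, out of 48105 probes and 20045 genes in all. The members were chosen by their differences between the FBP1 array and both controls, with results of these same arrays known. Those differences are therefore a description, and no test was made on them.

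The arrays were Illumina bead arrays of total RNA from MDA-MB-231, a human breast cancer cell line without hormone receptors and with a mesenchymal character, grown in DMEM with 10% serum. There were 3 groups of 1 array: cells given an FBP1 expression vector by transfection, cells given the empty vector in the same way, and cells labelled as a wt control, whose handling the labels do not describe. FBP1 encodes fructose-1,6-bisphosphatase, a gluconeogenic enzyme that opposes glycolysis; whether the transfection was transient or stable, and how many cultures stood behind an array, is not given in the sources used here. With 1 array per group no difference has a replicate check, and both comparisons of the FBP1 array share that array.

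The FBP1 probe gave a signal of 1063.5 with the FBP1 vector, 678.6 with the empty vector and 530.8 in the wt control, so the transfected gene was highest where the label puts it. It was detected on every array, with normalised log2 intensities of 10.06, 9.22 and 8.77, and the empty vector control also lay above the wt control. Whether the higher signal came from the vector was not tested. Between 41.8% and 42.0% of the probes were detected on each array, at a detection p-value under 0.01. MDA-MB-231 cells are known to lack the locus of CDKN2A, CDKN2B and MTAP, which encodes among others the CDK4 and CDK6 inhibitor p16. A CDKN2A probe (ILMN_1717714) nevertheless gave a signal of 120.6 on the FBP1 array, where it was detected. It gave 88.9 on the empty vector control and 89.0 on the wt control, where it was not detected. A second CDKN2A probe (ILMN_1744295) was also detected on the FBP1 array alone, with signals of 105.2, 82.5 and 87.9 in that order. Another (ILMN_1757255) was detected on none of the arrays. MTAP was likewise detected on the FBP1 array alone, with signals of 107.5, 97.7 and 85.1 on the FBP1, empty vector and wt arrays. For CDKN2B, probe ILMN_1723198 was detected on the empty vector control alone, with signals of 89.4, 113.5 and 99.5. The other CDKN2B probes were detected on none of the arrays. By these probes neither the FBP1 array nor the empty vector control fully matched its cell line label, the latter by probe ILMN_1723198 alone. Every difference below stands under that limit, and the part of these signals in the results was not tested. These signals were low, and at such levels detection did not follow the signal evenly across the arrays. A signal of 112.6 was detected for KDR on the empty vector control but not for MYBL2 on the wt control. KIF6 was detected at 92.0 on the FBP1 array, but not at 92.7 and 92.8 on the empty vector and wt controls. Of 15 markers of luminal breast cells, another epithelial type, 10 were detected with the FBP1 vector, 9 with the empty vector and 8 in the wt control. Their summed signals were 7031.5, 6301.1 and 5824.2. Of these markers, 5 lay 1.5-fold or more above the empty vector control, beside 6.72% of all genes. Against the wt control 5 did, beside 8.94% of all genes, and none lay below either control by that much. They were not all the same genes: XBP1 passed against the empty vector control only and EPCAM against the wt control only. The defining markers went different ways. ESR1, PGR, GATA3 and TFF1 were not detected on any array. FOXA1, which opens chromatin for the estrogen receptor, was detected on the FBP1 array alone, with signals of 153.6, 85.8 and 89.7. CDH1, which encodes E-cadherin and is known to be off in MDA-MB-231, was also detected there alone, with signals of 158.3, 89.7 and 79.8. AGR2, a secretory pathway protein of luminal tumours, was 2.53-fold and 3.44-fold higher on the FBP1 array than on the empty vector and wt controls. KRT8 was 1.42-fold and 1.24-fold lower there than on these controls. SPDEF had signals of 181.8, 148.4 and 97.8 on the FBP1, empty vector and wt arrays, and the controls themselves were 2.45-fold apart. The part of these markers in the results was not tested either.

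All 10 mitotic kinesins were lower on the FBP1 array than on both controls, and the controls lay close to each other. Levels are normalised log2 intensities of the brightest probe of each gene, differences are log2, and a gene was counted as lower where the difference reached 1.5-fold. Against the empty vector control 8 of 10 were lower by that much, beside 6.06% of the 12404 genes compared. Against the wt control 8 of 10 were lower as well, beside 8.01% of 12394 genes. They were the same 8 genes, which puts 8 of 10 below both controls beside 3.06% of 12884 genes. KIF11 and KIF14 did not reach that size against either control. None of the 10 was higher on the FBP1 array by 1.5-fold, beside 6.72% of all genes against the empty vector control and 8.94% against the wt control.

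The median difference of the 10 genes was -0.96 against the empty vector control and -0.81 against the wt control, where the medians over all genes were -0.01 and 0.00. Between the controls, empty vector against wt, the median was 0.00, 5 of the 10 lay below 0 and 5 above it, and none was 1.5-fold apart, beside 7.36% of 12343 genes. The largest difference between the controls was that of KIF20B, -0.20. Choosing members by their differences from both controls can itself favour genes on which the controls agree, so this closeness is a description too. In bulk RNA, fewer dividing cells and less of these messages in each dividing cell cannot be told apart.

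**Figure D1:**
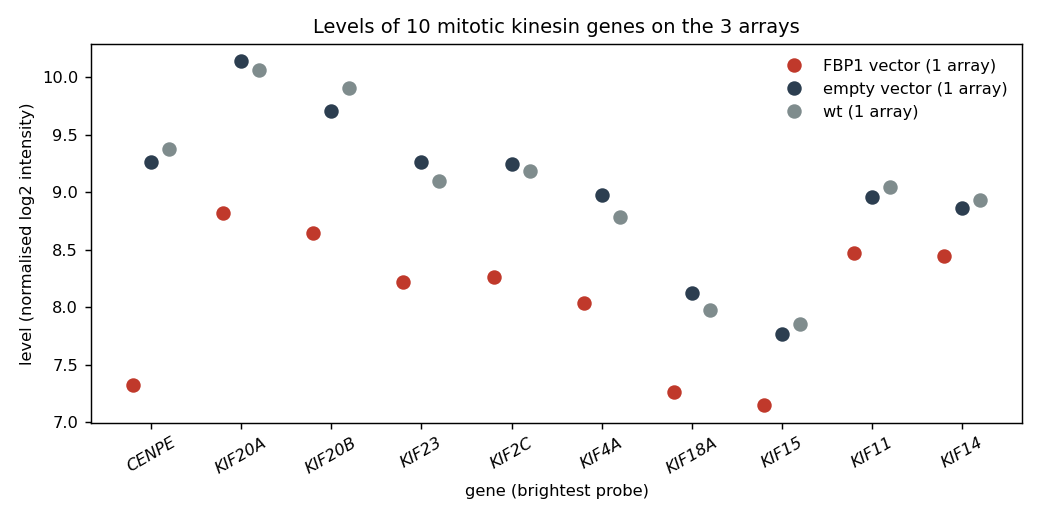
Normalised log2 intensity (y axis) of the 10 genes (x axis) on the FBP1 vector array (left point of each gene), the empty vector control (middle) and the wt control (right), 1 array each. In every gene the FBP1 array lies below both controls, which lie within 0.20 of each other.

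CENPE, the kinetochore motor that carries chromosomes towards the spindle equator and helps the spindle checkpoint, stood furthest down. Its brighter probe (ILMN_1716279) gave a signal of 220.7 with the FBP1 vector, 697.5 with the empty vector and 772.5 in the wt control. The log2 levels were 7.33, 9.27 and 9.38, which made CENPE 3.84-fold lower than on the empty vector control and 4.14-fold lower than on the wt control. Only 3 of 12404 genes lay further below the empty vector control, and 18 of 12394 lay further below the wt control. The gap to the next member was 0.62 against the empty vector control (KIF20A) and 0.79 against the wt control (KIF20B). A second CENPE probe (ILMN_2225718) gave 168.1, 446.6 and 454.1 in the same order of arrays, with differences of -1.83 and -1.80. After background correction both CENPE probes thus placed the FBP1 array lowest by more than 3-fold. In the uncorrected signals the second probe was 2.66-fold and 2.70-fold lower.

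Among the motors of the midzone and cytokinesis, KIF20A and KIF20B stood lowest and KIF14 highest. KIF20A, which carries the Aurora B complex to the spindle midzone, had signals of 491.7 with the FBP1 vector, 1212.0 with the empty vector and 1201.6 in the wt control, and was 2.49-fold and 2.36-fold lower than on these controls. KIF20B, a midzone motor related to it, had signals of 444.3, 915.3 and 1089.2, and was 2.08-fold and 2.39-fold lower. Of all genes compared, 26 lay further below the empty vector control than KIF20A and 97 further below it than KIF20B. Together with CENPE these were the members at least 2-fold below both controls, a size that 51 of 12884 genes reached (0.396%).

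KIF23, the motor subunit of centralspindlin, which bundles midzone microtubules and starts the cleavage furrow, was read by 2 probes of different brightness. The brighter one (ILMN_1811472) gave 349.3 with the FBP1 vector, 697.7 with the empty vector and 649.8 in the wt control, and was 2.07-fold and 1.84-fold lower. The dimmer one (ILMN_1716553), which the annotation assigns to another transcript of the gene, gave 109.1, 129.8 and 133.5, with differences of -0.42 and -0.55. Both probes put the FBP1 array lowest, but they disagree on the size, and the dimmer one lies close to the background. KIF14, which works with citron kinase in abscission, was the member nearest to 0. It had signals of 396.1, 547.8 and 585.5 and was 1.33-fold and 1.40-fold lower than on the empty vector and wt arrays, and 12.4% of all genes lay further below the empty vector control than it did.

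KIF4A, KIF2C and KIF18A act on chromosomes and on microtubule ends. KIF4A is a chromokinesin, which binds chromosome arms and later sets the length of the midzone with PRC1. Its signals were 314.6 with the FBP1 vector, 582.0 with the empty vector and 535.4 in the wt control, and it was 1.92-fold and 1.68-fold lower. KIF2C does not walk but takes microtubule ends apart at the centromere, which corrects faulty attachments. It had signals of 357.5, 690.2 and 682.7 and was 1.98-fold and 1.89-fold lower, with the controls 0.07 apart.

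KIF18A, which damps chromosome movements at the spindle equator, gave 214.5 with the FBP1 vector, 355.9 with the empty vector and 337.4 in the wt control on its brighter probe (ILMN_2132161). That made it 1.81-fold and 1.64-fold lower. Its other probe (ILMN_1779153) was detected on none of the arrays, with signals of 85.2, 90.1 and 81.4, and carries no information on the gene.

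KIF11 and KIF15 push the spindle poles apart. KIF11, the target of the drug monastrol, slides antiparallel microtubules and is needed to form a bipolar spindle. One probe (ILMN_2143155) gave 400.4 with the FBP1 vector, 577.2 with the empty vector and 629.1 in the wt control, and was 1.41-fold and 1.49-fold lower. The other (ILMN_1794539), of almost the same brightness, gave 391.4, 605.3 and 606.5, with differences of -0.62 and -0.56. Against the empty vector control KIF11 therefore lay on one side or the other of 1.5-fold by the choice of probe, and against the wt control both probes fell just short of it. KIF15, which can keep a spindle bipolar when KIF11 is blocked, had signals of 203.2, 296.1 and 313.8 and was 1.54-fold and 1.64-fold lower.

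**Figure D2:**
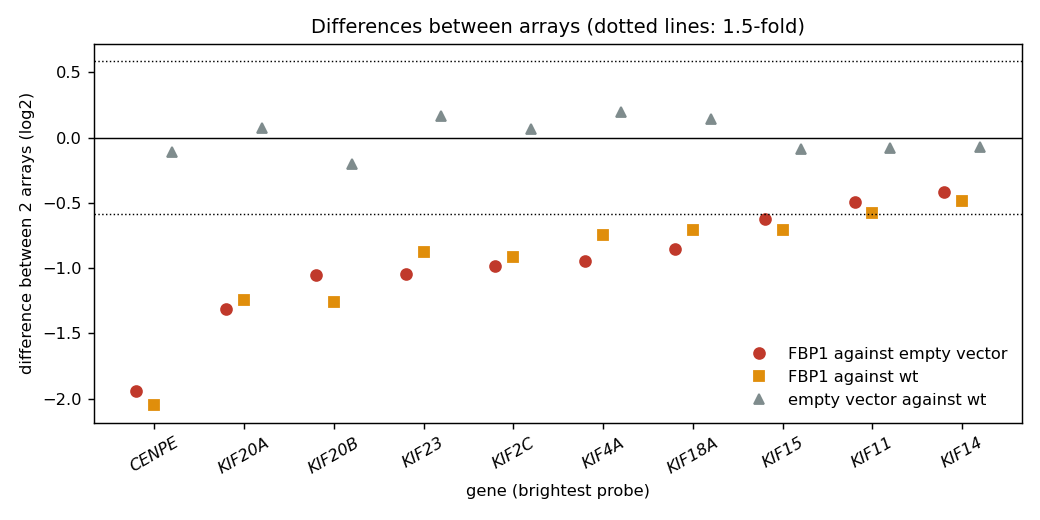
Difference in log2 intensity (y axis) for each gene (x axis), FBP1 against empty vector (circles), FBP1 against wt (squares) and empty vector against wt (triangles), with dotted lines at 1.5-fold. Circles and squares run from CENPE at -1.94 and -2.05 up to KIF14 at -0.41 and -0.48, and the triangles stay between -0.20 and 0.19.

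Set against all genes, the members lay towards the lower end but, CENPE apart, not at its edge. The share of genes further below the empty vector control was 0.21% for KIF20A, 0.782% for KIF20B, 0.814% for KIF23, 1.04% for KIF2C, 1.31% for KIF4A and 1.93% for KIF18A. It was 5.14% for KIF15 and 9.08% for KIF11. Against the wt control the same shares ran between 0.145% for CENPE and 11.7% for KIF14. Of 12884 genes, 38.2% were below both controls by any amount, which is the level to hold beside the 10 of 10 members.

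**Figure D3:**
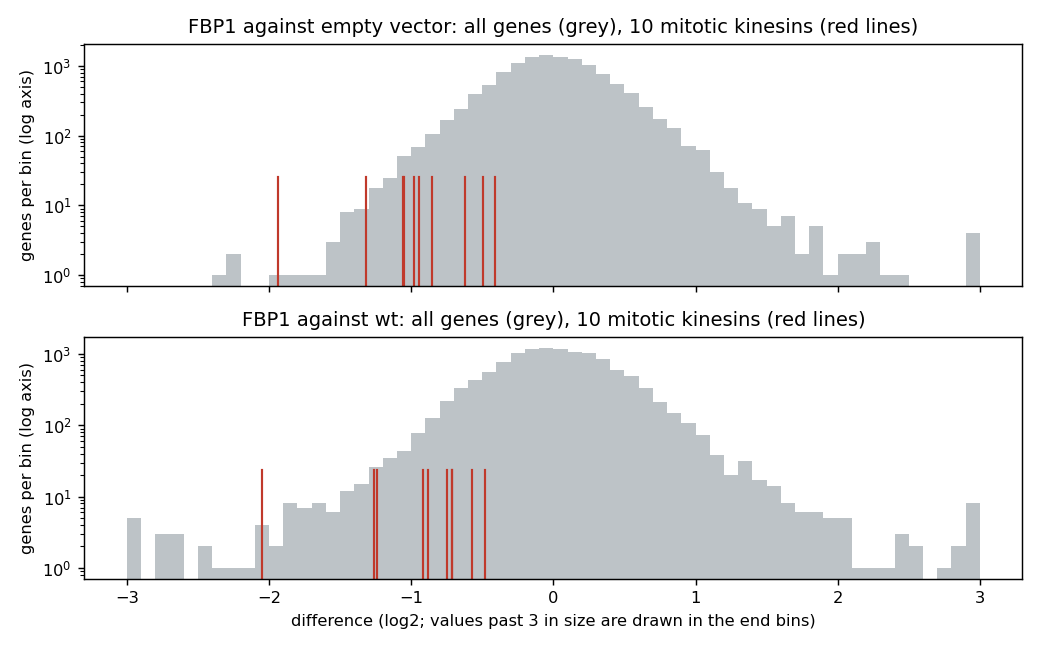
Number of genes (y axis, log scale) by difference in log2 intensity (x axis, bins of 0.1), for FBP1 against empty vector (upper panel) and FBP1 against wt (lower panel), with the 10 mitotic kinesins as red lines. All red lines lie below 0, between -1.94 and -0.41 in the upper panel and between -2.05 and -0.48 in the lower one, within the lower flank of the grey distribution.

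The start regions of these genes were read because late cell cycle genes are known for a short element near the start, the CHR (cell cycle genes homology region), bound by the DREAM and MYB-MuvB complexes, and for CCAAT boxes bound by NF-Y. The RefSeq promoter table (GRCh38.p14) covers 250 bases before to 50 bases after each start and held all 10 genes. Searches on both strands used the letters TTTGAA and, as a variant of it, TTTAAA (which is its own reverse complement), and for the box the letters CCAAT. At least 1 copy of TTTGAA or TTTAAA was present in 10 of 10 kinesin windows, against 24.3% of the 27305 genes in the table (first listed start of each) and 16.6% of the 9900 of them that were compared between the FBP1 and empty vector arrays. TTTGAA was in 7 windows (15.4% of the table), TTTAAA in 5 (12.3%) and CCAAT in 7 (35.7%). These matches describe letters and do not show that a factor binds.

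The 100 bases before the start are shown for 6 members that hold TTTGAA or TTTAAA there, among them CENPE, the lowest member, and KIF11, near the 1.5-fold line. Capitals mark TTTGAA or TTTAAA and CCAAT, which read TTCAAA and ATTGG where the match is on the other strand; no 2 matches overlap. The positions are chr4:103198344-103198443 on the minus strand for CENPE, chr5:138179012-138179111 on the plus strand for KIF20A, chr15:69414249-69414348 on the plus strand for KIF23, chrX:70290004-70290103 on the plus strand for KIF4A, chr11:28108157-28108256 on the minus strand for KIF18A and chr10:92593030-92593129 on the plus strand for KIF11.
CENPE: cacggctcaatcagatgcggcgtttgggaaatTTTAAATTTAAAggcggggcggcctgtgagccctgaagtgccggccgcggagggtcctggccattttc
KIF20A: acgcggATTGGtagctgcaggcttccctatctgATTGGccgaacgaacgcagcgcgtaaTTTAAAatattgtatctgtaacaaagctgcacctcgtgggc
KIF23: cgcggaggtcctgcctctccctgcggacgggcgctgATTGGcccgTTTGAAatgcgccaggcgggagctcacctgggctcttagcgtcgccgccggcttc
KIF4A: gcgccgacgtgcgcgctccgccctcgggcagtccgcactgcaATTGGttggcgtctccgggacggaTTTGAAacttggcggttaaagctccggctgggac
KIF18A: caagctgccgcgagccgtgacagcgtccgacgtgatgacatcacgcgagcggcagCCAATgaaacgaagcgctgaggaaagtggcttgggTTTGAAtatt
KIF11: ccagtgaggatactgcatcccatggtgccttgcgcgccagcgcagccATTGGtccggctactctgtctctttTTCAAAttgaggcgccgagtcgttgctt
CENPE, the lowest member, held 2 adjacent copies of TTTAAA in these bases, the nearer 62 bases before the start, and no CCAAT. KIF20A held TTTAAA 41 bases before the start with CCAAT at 67 and 94 bases, and KIF23 held TTTGAA at 55 bases with CCAAT at 64. In KIF4A the element lay at 34 bases with CCAAT at 58, in KIF18A at 10 with CCAAT at 45, and in KIF11 at 28 with CCAAT at 53. KIF15 held TTTGAA at 35 bases and no CCAAT. In KIF2C the TTTAAA spans the start, and in KIF14 and KIF20B the TTTGAA lies after it. KIF14 and KIF11, the members nearest to 0, held both TTTGAA and CCAAT, as did KIF20B, KIF23, KIF4A and KIF18A. CENPE, KIF20A and KIF2C held TTTAAA without TTTGAA.

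Most of the genes listed as working with these motors in mitosis were lower too. Of 25 listed partners, 24 were compared: 17 lay 1.5-fold or more below the empty vector control and 17 below the wt control, 13 below both, and none above either, with medians of -0.66 and -0.65. The shares over all genes compared were 6.06%, 8.01% and 3.06%. This list, like all others here, was chosen with earlier results of these arrays known. The kinetochore proteins CENPF, which like CENPE sits at the outer kinetochore, and NUF2 stood lowest against the empty vector control, at -1.25 and -1.07; against the wt control they stood at -0.73 and -0.53. BUB1B, the checkpoint protein that binds CENPE, stood at -0.55 and -0.67. TPX2, which recruits KIF11 and KIF15 to the spindle, stood at -0.86 and -0.75.

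Among the partners in cytokinesis, PRC1, the microtubule bundler that binds KIF4A, stood at -0.67 against the empty vector control and -0.35 against the wt control. RACGAP1, the other subunit of centralspindlin beside KIF23, stood at -0.62 and -0.56, and ECT2, which centralspindlin activates, at -0.30 and -0.24. AURKB, the kinase that KIF20A carries to the midzone, stood at -0.52 and -0.62, and the spindle protein NUSAP1 at -0.91 and -0.63. NUMA1, a spindle pole protein also used outside mitosis, was nearest to 0 at -0.15 and 0.00. The partners named here for CENPE, KIF20A, KIF23 and KIF4A were thus less far down than the motor itself against each control, whereas TPX2 was further down than KIF11 and KIF15. In the promoter table, 19 of the 21 partners found there held TTTGAA or TTTAAA, beside 24.3% of all genes there.

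Some of the other genes that mark cycling cells were lower as well. Of 18 cyclins, CDKs and their regulators compared, 8 lay 1.5-fold or more below the empty vector control and 7 below the wt control, beside 6.06% and 8.01% of all genes, with none above, and medians of -0.55 and -0.55. CCNB2 (-1.22 and -0.76) and CCNF (-1.04 and -0.93) stood lowest against the empty vector control, and CDK4 (-0.05 and -0.17) and CCND2 (0.01 and -0.43) highest; the order against the wt control was another. CDK1, the kinase that starts mitosis, stood at -0.72 and -0.78 and its cyclin gene CCNB1 at -0.52 and -0.54. Of 11 proliferation markers, 3 were that much below the empty vector control and 4 below the wt control, beside the same shares of all genes, with medians of -0.35 and -0.46. MKI67, the Ki-67 proliferation antigen, stood at -0.62 and -0.75, and PCNA, the replication clamp, at -0.32 and -0.30. RRM2 (-0.90 and -1.28) and TOP2A (-0.85 and -0.50) were lowest against the empty vector control, MCM3 (-0.18 and -0.20) and MCM7 (-0.12 and -0.03) highest.

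The regulators that are known to switch such genes showed no common direction. Of 22 listed, 20 were compared, 3 lay 1.5-fold or more below the empty vector control and 1 above it, and 2 below and 1 above the wt control. Of all genes 6.06% were below and 6.72% above the empty vector control, and 8.01% below and 8.94% above the wt control; the list's medians were -0.10 and 0.00. FOXM1, the activator of late cell cycle genes, stood at -0.86 and -0.55, and E2F8, a repressor of E2F targets, at -0.86 and -0.67. E2F7 stood at 0.45 and 0.54 and RBBP4, a histone-binding subunit that DREAM shares with other complexes, at 0.65 and 0.95. E2F1 stood at -0.14 and -0.12 and LIN9, a MuvB subunit, at -0.14 and -0.40. MYBL2, the MYB that joins MuvB in activation, was detected on none of the arrays by its brightest probe.

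Kinesins outside the 10 were read in the same way. Of 9 other kinesins used in division, 6 were compared, and 2 of them lay 1.5-fold or more below the empty vector control, beside 6.06% of all genes: KIFC1, the motor that focuses spindle poles and clusters centrosomes, at -1.09 (-0.63 against the wt control), and the chromokinesin KIF22 at -0.68 (-0.34). KIF2A stood at 0.06 and -0.27, KIF24 at -0.16 and -0.10 and KIF3B at -0.03 and 0.18. KIF3A was detected on the FBP1 array alone and was there at least 1.1-fold higher than on each control. Its signals of 94.5, 92.2 and 86.5 on the FBP1, empty vector and wt arrays all lay close to the background. The list medians were -0.09 and -0.18.

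Of 27 transport and other kinesins and light chains, 16 were compared with the empty vector control and 15 with the wt control. Their medians were -0.07 and 0.20, with 2 lower and none higher against the empty vector control, and 3 lower and 1 higher against the wt control, beside 6.06% and 6.72% of all genes in the first comparison and 8.01% and 8.94% in the second. KIF5B, the widely used heavy chain of conventional kinesin, was the 1 gene of this list 1.5-fold or more below both, within the members' range, at -0.86 and -0.79. KIF5A was detected on the empty vector control alone and was at least 1.5-fold lower on the FBP1 array, with signals of 83.7, 111.4 and 88.4 on the FBP1, empty vector and wt arrays. KIFC2 stood at 0.43 and 0.51. KIF5C, detected on the FBP1 array alone, exceeded the empty vector control at least 1.37-fold and the wt control at least 1.57-fold. Its signals were 108.0, 98.4 and 86.7 in the same order of arrays. The signals of KIF5A and KIF5C lay close to the background, so these folds depend on the background correction. In the promoter table, 2 of 18 genes of this list held TTTGAA or TTTAAA, beside 24.3% of all genes there. Of the other division kinesins, 2 of 9 did.

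Tubulins, dynein and dynactin genes, which make the tracks and the opposing motor, had medians of -0.21 and -0.07. Against the empty vector control 3 of 19 were at least 1.5-fold lower and none higher, and against the wt control 4 of 20 were lower and 1 higher, beside the same shares of all genes. TUBB3 (-1.04 and -0.48) and TUBB2A (-0.74 and -0.64) stood lowest against the empty vector control, and DYNC1LI2 (0.16 and 0.34) and DYNLT1 (0.27 and 0.21) highest. Whether the mitotic kinesins differ from any of these lists was not tested, since with 1 array per group the spread between samples is unknown.

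**Figure D4:**
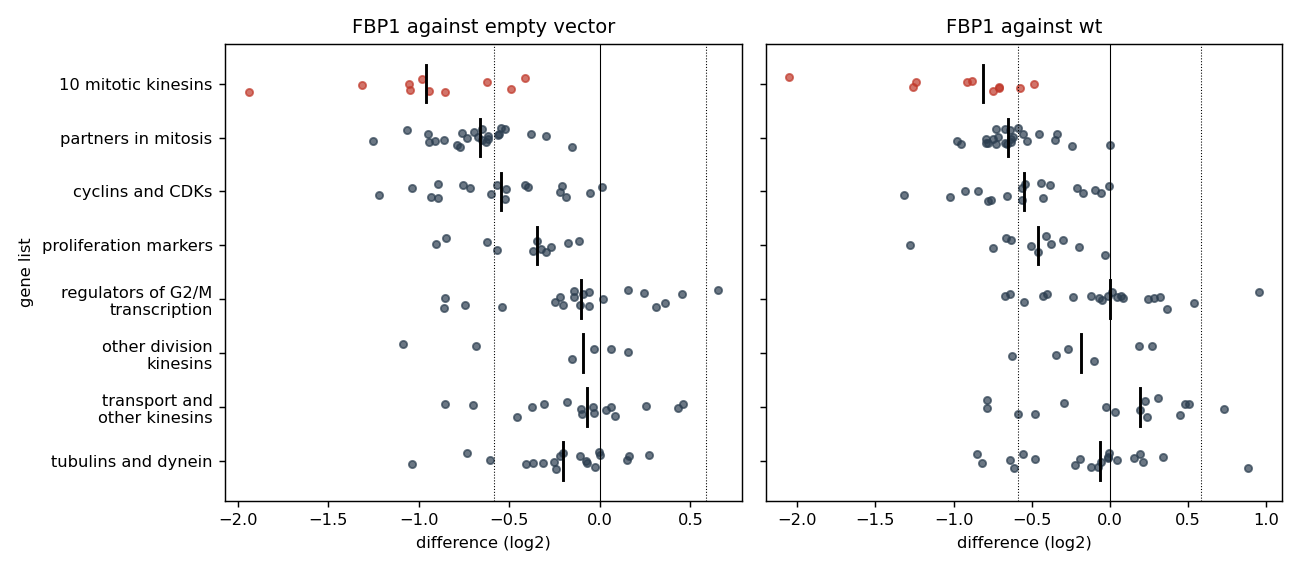
Difference in log2 intensity (x axis) of each gene of 8 lists (rows), FBP1 against empty vector (left) and FBP1 against wt (right), with list medians as black bars and dotted lines at 1.5-fold. The medians of the mitotic kinesins (-0.96 and -0.81) and of their partners in mitosis (-0.66 and -0.65) lie past 1.5-fold, and those of the other 6 lists do not.

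In the 10 alternative settings all 10 members stayed below both controls, while the size of the differences moved. CENPE ranged between -1.94 and -1.42 against the empty vector control and between -2.06 and -1.51 against the wt control, and KIF20A between -1.32 and -1.11 and between -1.26 and -1.03. In the authors' processed values, which keep the background in the signal, 6 members lay 1.5-fold or more below the empty vector control, where 1.15% of all genes were, and 5 were below the wt control, where 2.09% of all genes were. KIF20A, KIF20B, KIF23, KIF2C and CENPE lay 1.5-fold or more below both controls in all 10 of these settings.

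**Figure D5:**
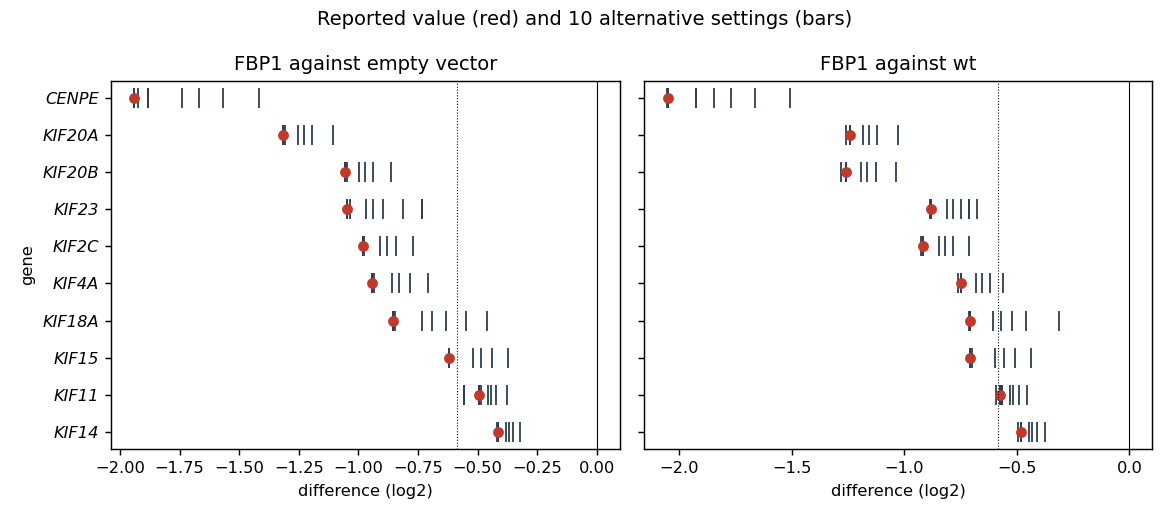
Difference in log2 intensity (x axis) of each gene (rows) in the setting reported (red point) and in 10 alternative settings (bars), FBP1 against empty vector (left) and FBP1 against wt (right), with a dotted line at 1.5-fold. No bar crosses 0, and the bars of KIF4A, KIF18A, KIF15 and KIF11 lie on both sides of the dotted line in at least 1 panel.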

How the data were processed

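The first deposited table lists, for each probe, the signal intensity on every array in linear units and, per the file headers, a detection p-value beside each. The second gives an intensity that the authors had processed further; its scale is linear and it is not centred per gene, and the normalisation method, like the scanner software, is not given in the sources used here. Its column medians were 87.8, 87.9 and 87.8 on the FBP1, empty vector and wt arrays, against 91.7, 94.6 and 93.7 in the first table. Probes with a missing value (2 of 48107) were left out.

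The neqc function (limma 3.58.1, R 4.3.3, offset 16) subtracted background and applied quantile normalisation; control probes are not marked, so it took the background from the detection p-values. The estimated background spread was 4.19 intensity units with the FBP1 vector, 12.8 with the empty vector and 16.2 in the wt control. No source used here says how the detection p-values were made. The smaller value on the FBP1 array, and the background taken from it, are therefore uncertain; normexp on all probes and no background correction, which do not use them, were run as alternatives. Probes were named through the platform annotation (30113 with 1 gene, 8 with several, not used, and the other 17985 unnamed here), and 30074 took their current symbol from RefSeq by gene ID. The brightest probe stood for its gene, which entered a comparison if detected at p under 0.01 on 1 or both of its arrays. For a gene undetected on the dimmer array the fold is a lower bound, against the higher of its own level and the lowest level of a detected probe there. With 1 array per group there was no test, and the number of arrays limits the precision; genes were counted at 1.5-fold. Background correction and normalisation were tried on simulated arrays that all had the same background. That simulation therefore cannot show what the unequal background spreads do here. Python 3.11.15, pandas 2.3.3, numpy 2.4.6 and matplotlib 3.10.9 were used.

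The members and lists were chosen with earlier results of these data known. Named were all members with every probe, and of each list the 2 highest and 2 lowest genes against the empty vector control, with the other division kinesins in full and with partners, regulators and cycle markers fixed by name; of the marker lists, the genes that bear on the label.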

Additional observations from a re-analysis of the deposited data

How the results depend on the processing

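No paired analysis was possible because each group has 1 array, and for the same reason no replicate could be left out. The counts of members at least 1.5-fold lower moved by over 1.5 times in the authors' processed values, to 5 against the wt control and 5 against both controls, and at 2-fold, to 4 against the empty vector control, 3 against the wt control and 3 against both. Of all genes, those lower than on the empty vector control numbered 752 as reported, 316 with a neqc offset of 50, 286 with normexp on all probes, 214 with no background correction, 143 in the authors' processed values and 121 at 2-fold. Against the wt control the counts were 993, 495, 436, 351, 259 and 182 in the same order, and against both controls 394, 184, 164, 127, 84 and 51. The median differences of the members stayed between -0.96 and -0.74 against the empty vector control, between -0.82 and -0.62 against the wt control, and between -0.01 and 0.00 between the controls. With the mean of all probes, KIF18A stood at -0.46 and -0.31, because its undetected probe enters. No value changed direction among those called. Other filters on dim probes and median centring left each count within 1.5 times, and the spread between arrays of one group cannot be known from these data.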

Other observations

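Of 10 fibroblast markers, 5 were detected with the FBP1 vector, 5 with the empty vector and 4 in the wt control, with summed signals of 1185.5, 1196.3 and 1200.1. Of 9 blood cell markers with a probe, 5 were detected on each array, with summed signals of 3022.2, 2887.4 and 3527.1, most of it from CD68 (1688.3, 1688.2 and 2010.2), which other cells also express. CD68, CD14 and LCP1 were named after their values were seen. CD14 was 2.06-fold and 2.34-fold higher on the FBP1 array than on the empty vector and wt controls, and LCP1 had signals of 218.1, 287.1 and 652.0, while PTPRC, the defining blood cell marker, was not detected on any array. Of 6 endothelial markers 1, 2 and 1 were detected. The list for MDA-MB-231 cells, which also holds CDH1 and ESR1 as genes known to be off there, had 11, 10 and 10 of 13 genes detected, with summed signals of 41973.1, 52203.4 and 50155.0.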
